A study of Mus musculus with 4 samples.

Results

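The 9 genes of sperm ion transport followed here, of 18419 genes measured, were those of 7 subunits of the CatSper calcium channel (Catsper1, Catsper2, Catsper3, Catsper4, Catsperb, Catsperd and Catsperg1), the sperm sodium/proton exchanger gene Slc9c1 and the sperm potassium channel gene Kcnu1. They were chosen by name, and all 9 were found in the expression table. The cells came from testes of outbred ICR mice and were sequenced by a droplet method that tags every captured RNA molecule with its own identifier (UMI). A0 was the vehicle control. A10 received alginate oligosaccharides (AOS), 10 mg/kg. B0 received busulfan and then vehicle, and BA10 received busulfan and then the A10 dose of AOS. AOS are short chains cut from the alginate of brown seaweed, and busulfan is an alkylating drug that kills dividing germ cells. Busulfan was a single injection of 40 mg/kg at 3 weeks of age, with vehicle or AOS from the next day. The text of the study gives the length of dosing both as 5 and as 2 weeks, so it is uncertain here. The cells of 6 mice were pooled for each library, so the mice cannot be told apart. Free spermatozoa were washed off before digestion. Each group was thus 1 library, there was no replicate spread, and no p-value is given. Intervals are 95% intervals and cover counting error only.

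The CatSper channel is the route by which calcium enters the sperm tail and sets off the whip-like beat needed to reach and penetrate the egg. It is assembled from 4 different pore-forming subunits and a set of auxiliary subunits, and male mice that lack a pore subunit make sperm that cannot become hyperactivated. Alkaline pH opens the channel, and the exchanger and the potassium channel act on the pH and the membrane potential of the same tail membrane. All of this machinery is transcribed in the testis before the sperm leave it, from meiotic spermatocytes (SPCs) to haploid spermatids (STs).

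The genes lie on 9 different chromosomes (mm10, GENCODE M21), and each is annotated as protein coding. The pore subunit genes are Catsper1 at chr19:5335741-5344280 on the plus strand, Catsper2 at chr2:121392631-121413792 on the minus strand, Catsper3 at chr13:55784568-55808998 on the plus strand and Catsper4 at chr4:134211970-134227383 on the minus strand. The auxiliary subunit genes are Catsperb at chr12:101404653-101626009 on the plus strand, Catsperd at chr17:56628143-56664456 on the plus strand and Catsperg1 at chr7:29181321-29214035 on the minus strand. Slc9c1 lies at chr16:45535309-45607001 and Kcnu1 at chr8:25849623-25937939, both on the plus strand. Catsper2 shares 18 bases at its 5′ end with Pdia3 on the other strand. Catsperg1 has a close copy, Catsperg2, on the same chromosome: 41.0% of the 50-base windows of its longest transcript, and 32.8% of those in the last 500 bases, also occur in a Catsperg2 transcript, so the split of UMIs between these copies is uncertain.

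Promoter windows of 250 bases before to 50 bases after the gene start were at hand for 7 of the 9 genes (RefSeq, GRCm38.p6), 9 windows in all, since Catsperd and Catsperg1 have 2 each. They were searched on both strands for strings bound by regulators of male germ cells. Windows of genes that were higher in SPC-like and in ST-like cells, as described further on, are shown side by side. TAACNG, the core recognised by MYB proteins, a family that includes the regulator of meiotic prophase A-MYB, occurred in 23.3% of all 32851 windows and in 4 of these 9. Those 4 were windows of Catsper2, Catsperb, Catsperd and Slc9c1, and all 4 genes belong to those that were higher in SPC-like cells, Catsperd only narrowly. All but 2 of the 9 windows were of such genes, so a link of the string to the class was not tested. The 30 bases around the first match of each are shown 5′ to 3′ on the strand of the gene, with the match in capitals (the Catsperb match is the reverse complement of the string).
Catsper2, chr2:121413819-121413848, match 44 bases before the start: cggaacagctggTAACTGccgattggcggg
Catsperb, chr12:101404650-101404679, match 11 bases before the start: tagactgctaggCAGTTAactgtgaaaact
Catsperd, chr17:56628003-56628032, match 128 bases before the start: tctgcgtagaccTAACCGggcttttgtccg
Slc9c1, chr16:45535095-45535124, match 159 bases before the start: atacaatacattTAACTGgaggattctttt
The start in these lines is the RefSeq start of the window, which can differ from the gene start given above. For Catsperb it lies inside the gene as annotated above, and so does the match, and for Slc9c1 it lies upstream of the annotated start. Of the 2 windows of Catsperd, the other held none. Catsperb holds another match, on the other strand and overlapping the first, within the bases shown, and Slc9c1 holds another 15 bases after its start. The windows of Catsper3 and Catsper4, the only genes higher in ST-like cells for which a window was at hand, held no TAACNG. With 2 windows and the string in 23.3% of all windows, nothing is read from its absence. The part of each window upstream of the outermost RefSeq start of the gene is shown for comparison, so that the bases nearest the start given above are not printed, from chr13:55784329-55784499 and, on the minus strand, chr4:134227432-134227633.
Catsper3: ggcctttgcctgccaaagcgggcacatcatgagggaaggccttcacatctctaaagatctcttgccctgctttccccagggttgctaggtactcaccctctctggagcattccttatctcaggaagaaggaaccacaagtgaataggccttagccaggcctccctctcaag
Catsper4: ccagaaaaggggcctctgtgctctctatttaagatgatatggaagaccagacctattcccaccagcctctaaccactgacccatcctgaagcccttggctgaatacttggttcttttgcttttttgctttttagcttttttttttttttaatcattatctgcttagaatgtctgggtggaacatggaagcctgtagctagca
Neither window of Catsperg1, an SPC-high gene, held TAACNG. The full cyclic AMP response element (TGACG followed by TCA), the site of the spermatid regulator CREM, occurred in 1.79% of all windows and in 0 of the 9. Its core TGACG, which lies inside the full element, occurred in 20.8% of all windows and in 2 of the 9, that of Catsper2 and the Catsperd window not shown above. GTTGCC, a core of the X-box bound by RFX proteins, occurred in 12.5% of all windows and in 0 of the 9, and TATAAA in 13.6% and in 1 of the 9, a window of Catsperg1. A match is a string of letters and not a shown binding site.

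The libraries held 8941 (A0), 9682 (A10), 4659 (B0) and 3778 (BA10) cells and between 25323535 and 150812974 UMIs. B0 stood apart in depth and make-up: its median cell held 4214 UMIs, against 10948 to 17989 in the other libraries, and its lowest cell 2985 UMIs, against 6716 to 9013. Of its cells, 74.9% fell in somatic-like clusters, led by Leydig-like cells. All markers of the 10 cell classes were detected in every library, with Leydig markers summing to 14526 CPM in B0 (UMIs per 1000000 UMIs of the cells) and to between 7.74 and 399 CPM elsewhere. Pairs of libraries shared between 31 and 135 barcodes. Cells were clustered without the 9 genes and their partners, and clusters were named from markers as spermatocyte-like, spermatid-like or somatic-like. A0 held 3576 SPC-like and 5344 ST-like cells, A10 3975 and 5688, B0 228 and 86, and BA10 3233 and 156. No cluster was named spermatogonia-like in this clustering, although 250 B0 cells (5.37%) and 12 BA10 cells were at resolution 2. The ST-like class of the libraries made after busulfan depended on the clustering: at resolution 0.5 it held 8 B0 and 200 BA10 cells, with 1000 variable genes 8 and 216, and at resolution 2 126 and 529 (14.0% of BA10). The SPC-like class of B0 held 228 cells at resolution 0.5, 261 with 1000 variable genes and 665 (14.3%) at resolution 2.

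In the control testis there were 2 main patterns. In the later one, the pore subunit genes Catsper1, Catsper3 and Catsper4 and the potassium channel gene Kcnu1 were higher in ST-like cells. In the earlier one, Catsper2, Catsperb, Catsperg1 and Slc9c1 were higher in SPC-like cells. Catsperd was also higher in SPC-like cells, by a margin that turned when ratios were centred on the median of all genes, but it followed neither pattern. In A0 it stood at 89.0 CPM in late spermatocyte-like, 57.0 CPM in round and 106 CPM in elongating spermatid-like clusters. The split between the classes was the same in A10. Thus 4 of 9 genes were higher in ST-like cells and 5 of 9 in SPC-like cells in each of the 2 libraries made without busulfan, with counting intervals that excluded equality for all 9. The share of all genes on each side was not counted. Since centring turned Catsperd, the median gene also lay on the SPC-like side, and the 5 of 9 is not read as a trait of the set.

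Catsper1, Catsper3 and Catsper4 encode pore subunits. Catsper1 stood at 18.1 CPM in SPC-like and 82.2 CPM in ST-like cells of A0, a 4.53-fold difference (log2 2.18, 2.09 to 2.27). The levels in A10 were 17.1 and 75.3 CPM. Catsper3 showed the widest gap of the set, 26.3 against 161 CPM in A0 (6.11-fold) and 24.6 against 145 CPM in A10 (5.87-fold). Catsper4 stood at 31.8 against 141 CPM in A0 and 32.7 against 138 CPM in A10. Kcnu1, which encodes the pore of the pH-gated sperm potassium channel SLO3, had the same direction with a smaller gap, 16.3 against 46.6 CPM in A0 and 16.0 against 44.0 CPM in A10.

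Catsper2, although it too encodes a pore subunit, ran the other way. Its level was 385 CPM in SPC-like and 162 CPM in ST-like cells of A0, 2.37-fold higher in the SPC-like cells, and 363 and 157 CPM in A10. Catsperb, which encodes an auxiliary subunit with a large extracellular part, stood at 37.6 and 13.2 CPM in A0. Catsperg1, which encodes another, stood at 64.0 and 26.9 CPM, and Slc9c1, the exchanger gene, at 45.4 and 22.3 CPM. These 3 genes were thus between 2.04-fold and 2.85-fold higher in SPC-like cells of A0. Catsperd, which encodes the auxiliary subunit needed for a stable channel in the flagellum, differed least, with 87.1 and 73.2 CPM in A0 (1.19-fold) and 88.6 and 68.0 CPM in A10 (1.3-fold).

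The patterns were resolved further when 17024 germ cells of A0 and A10 were placed in order from SPC-like to ST-like and cut into 10 bins of equal size. In A0, Catsper1 went from 2.87 CPM in bin 1 to 125 CPM in bin 7, Catsper3 from 5.33 to 276 CPM and Catsper4 from 5.43 to 233 CPM in the same bins. Kcnu1 peaked a bin earlier, at 66.7 CPM in bin 6, from 3.37 CPM in bin 1. These bins are the stretch where Acrv1, an acrosomal gene of round spermatids, was highest (371 CPM in bin 7). By bin 10 all 4 stood at between 8.44% and 22.1% of their highest bin.

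Catsper2, Catsperb and Slc9c1 peaked together in bin 2, at 527, 51.6 and 59.1 CPM in A0, and were at 4.69%, 8.43% and 9.37% of those levels in bin 10. Catsperg1 was highest in bin 1, at 96.1 CPM, and was lowest in bin 10, at 18.0 CPM. In the cluster named early spermatocyte-like it stood at 135 CPM in A0 and 150 CPM in A10, above its level in all SPC-like cells (64.0 and 68.3 CPM), whereas Catsperb stood below its own, at 23.4 and 15.8 CPM. Catsperd had no single peak. It was high at both ends of the order in A0, with 110 CPM in bin 10, and lowest in between, at 42.1 CPM in bin 7, where Catsper1, Catsper3 and Catsper4 were at their highest. In A10 the ends were alike too, but bin 2 was its highest, at 103 CPM, with bin 10 at 92.6% of it. The peak bins of the other 8 genes were the same in A0 and A10. The order of the last bins is not certain: Prm1, a protamine gene, was highest in bin 9, and Tnp2, a transition protein gene used before the protamines, in bin 10.

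**Figure D1:**
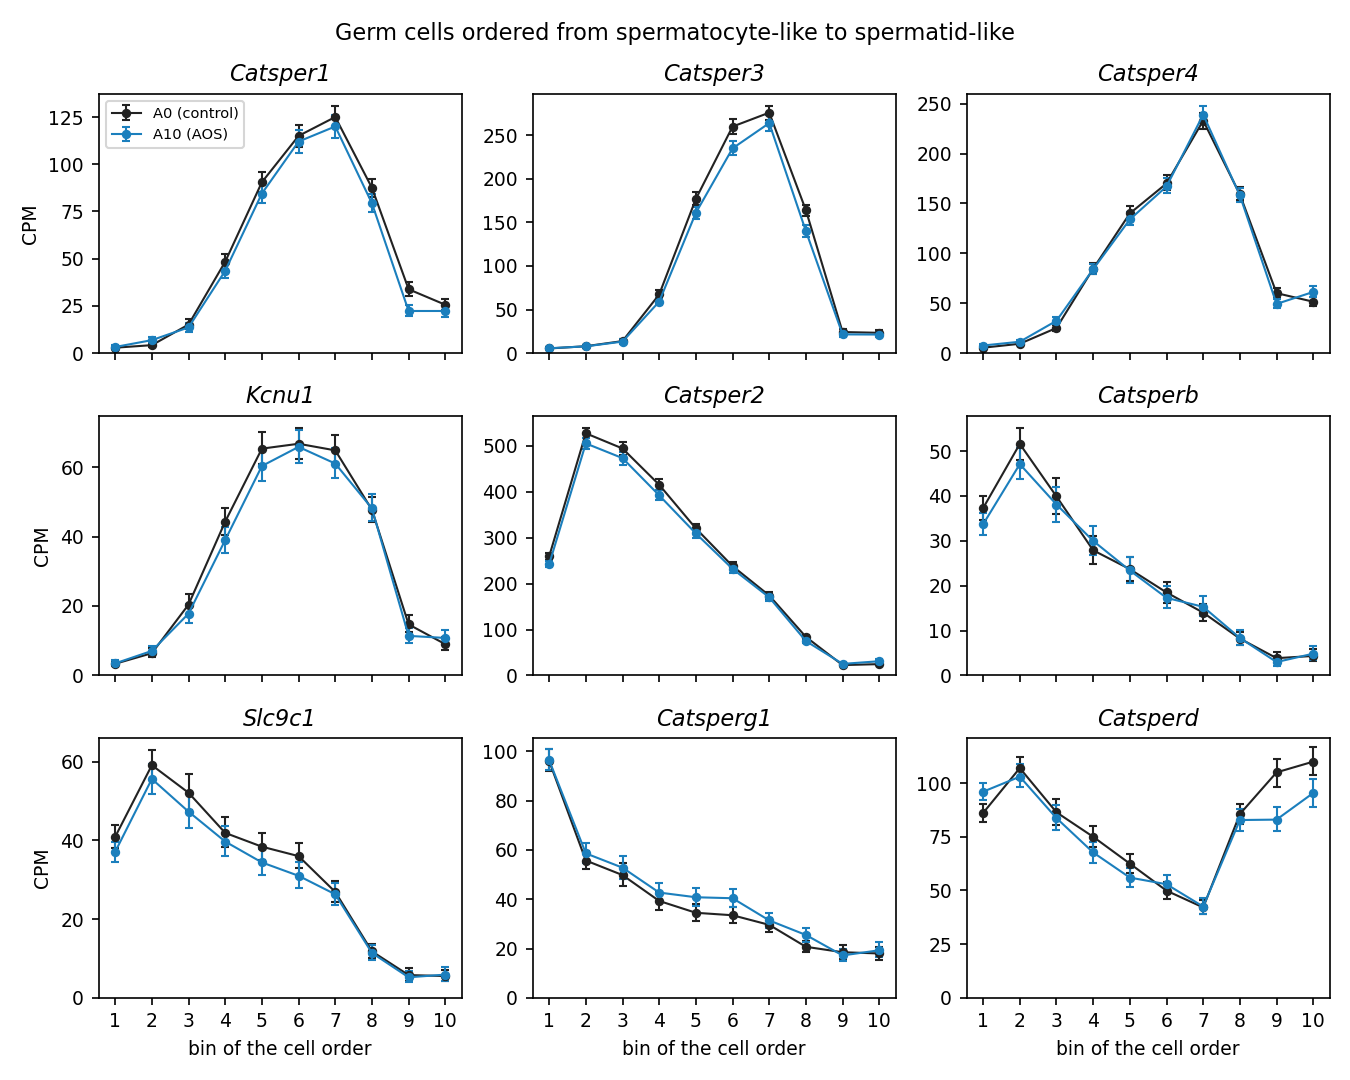
Levels (CPM) of the 9 genes in 10 equal bins of germ cells ordered from SPC-like to ST-like, in A0 (black) and A10 (blue); points are bins and bars are 95% counting intervals. Catsper1, Catsper3 and Catsper4 peaked in bin 7 and Kcnu1 in bin 6, Catsper2, Catsperb and Slc9c1 in bin 2 and Catsperg1 in bin 1, while Catsperd was lowest in bin 7.

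Across the 18 clusters that held at least 50 cells in A0, and the 18 in A10, the profile of Catsper1 had Pearson correlations of 0.99, 0.99 and 0.97 with Catsper3, Catsper4 and Kcnu1 in A0, and the profile of Catsper2 had correlations of 0.95 and 0.98 with Catsperb and Slc9c1. Catsper1 had a correlation of 0.06 with Catsper2 and of −0.58 with Catsperg1. The clusters share libraries and a common course of maturation, so these values are descriptions. Among 6499 other genes, the profiles most like Catsper1 were those of Spaca3, an acrosomal lysozyme-like gene, Zfp462 and Spata45 (mean r of A0 and A10 0.997, 0.995 and 0.994). For Catsper3 they were Lyzl6, another lysozyme-like gene, Triml1 and Ube2a, for Catsper4 Ttc23l, Best1 and BC048609, and for Kcnu1 Gm14625, Tmem225 and 1700016G14Rik, all at 0.984 or more. For Catsper2 they were Vps26a, Tomm22 and Bbof1, for Catsperb Nop9, Pkd2l2 and Chchd7, for Catsperg1 Swi5, Tmem234 and Ankrd40, and for Slc9c1 Haus1, Nsun2 and Txnrd3, all at 0.981 or more. Catsperd had the least typical profile: its 3 nearest genes, Hyls1, Ttc23 and Pknox1, reached only 0.907, 0.89 and 0.84.

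Background of free RNA was read from the somatic-like cells of B0. In these 3489 cells, with a median of 4048 UMIs, the 9 genes stood between 0.665 CPM (Catsper1, a UMI in 0.258% of cells) and 13.2 CPM (Catsper2, 4.16% of cells). The 128 somatic-like cells of BA10, with a median of 11536 UMIs, held far more, from 10.8 CPM for Catsperb to 122 CPM for Catsper2, which had a UMI in 60.2% of them. Of them, 73 lay in a cluster, which also held 38 of the B0 somatic-like cells, whose Leydig marker score of 0.364 was close to its late spermatocyte score of 0.31 and whose 10 leading genes held 0 Leydig markers. That cluster held 220 of the 237 Catsper2 UMIs of the BA10 somatic-like cells. In the SPC-like cells of A0 and A10, the 12 elongating spermatid markers summed to 14822 and 16404 CPM, against 675 CPM in B0 and 2087 CPM in BA10. Catsper1, Catsper3, Catsper4 and Kcnu1 in SPC-like cells were also highest in A0 and A10 and lowest in B0, and the part of free RNA in these levels was not tested. The ST-like levels of the 4 genes in A0 were 1.52 to 2.61 log2 units above their own SPC-like levels.

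Single cells held few of the 9 transcripts. With each cell thinned to 5000 UMIs, the mean ST-like cell held 2.45 (A0), 2.32 (A10), 2.64 (B0) or 3.0 (BA10) of the 9 genes, and an SPC-like cell 2.23, 2.22, 1.24 and 1.86. All 4 pore subunit genes were seen together in 6.32% of ST-like cells of A0 (5.69 to 7.01%), 5.33% of those of A10 (4.76 to 5.94%), 6.02% in B0 (1.98 to 13.5%) and 11.5% in BA10 (6.98 to 17.6%). In SPC-like cells the share was between 0.805% and 0.897% in A0, A10 and BA10, and 0 of 121 cells in B0 (0 to 3.0%). In somatic-like cells of B0 it was 0 of 705 (0 to 0.522%). In those of BA10 it was 1 of 128 (0.0198 to 4.28%), an interval that spans the SPC-like shares. For ST-like cells the intervals of BA10 and A0 overlapped.

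The share of cells with a UMI depended on depth. Over the 9 genes the median was 44.3% (A0), 40.3% (A10), 4.64% (B0) and 35.3% (BA10), and with cells thinned to 5000 UMIs 21.7, 19.5, 7.65 and 13.8%. Thinning left out 3235 B0 cells. Catsper2 was seen in 79.2, 77.1, 17.5 and 93.6% of cells, and in 59.2, 58.2, 38.1 and 71.2% after thinning, so that BA10 was highest and B0 lowest on both scales. Catsper1 was seen in 44.3, 38.2, 3.33 and 20.9% of cells, and in 21.7, 19.5, 5.55 and 9.0% after thinning, highest in A0.

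At the level of whole libraries, Catsper1 stood at 54.5 (A0), 48.0 (A10), 9.36 (B0) and 16.6 CPM (BA10). Catsper3 stood at 103, 88.3, 15.4 and 24.1 CPM, and Catsper4 at 94.0, 88.8, 16.2 and 27.8 CPM in the same order. Kcnu1 followed at 33.5, 30.9, 8.45 and 15.3 CPM. These 4 genes shared an order, with A0 and A10 close together at the top, BA10 well below them and B0 lowest, and the intervals of B0 and BA10 did not overlap.

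Catsper2 stood at 259, 254, 111 and 296 CPM in A0, A10, B0 and BA10. Catsperd stood at 79.2, 77.6, 24.0 and 91.3 CPM. In these 2 genes BA10 was the highest library and B0 the lowest. Catsperb stood at 23.7, 23.7, 9.08 and 20.9 CPM, Slc9c1 at 32.3, 30.8, 8.96 and 29.4 CPM, and Catsperg1 at 42.9, 47.9, 23.0 and 37.9 CPM. For these 3 genes BA10 lay just under A0 and B0 was lowest. A whole-library level mixes the number of cells of a type with the RNA in each, which cannot be told apart in such a sum.

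**Figure D2:**
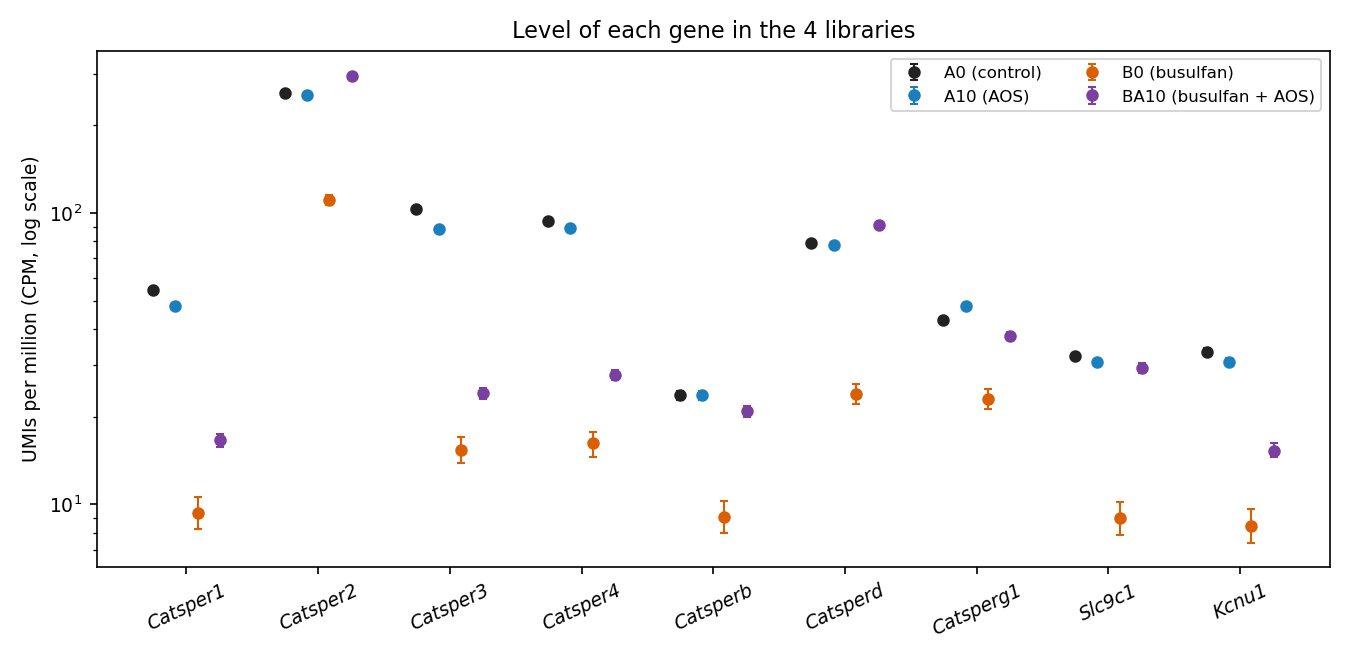
Level of each of the 9 genes (CPM, log axis) in the 4 libraries, with 95% counting intervals. B0 was lowest for every gene, and BA10 lay far below A0 for Catsper1 (16.6 against 54.5 CPM), Catsper3, Catsper4 and Kcnu1 but near or above it for the other 5.

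The comparison of A10 with A0 asks what AOS did without busulfan. None of the 9 genes differed by 2-fold or more (log2 ratio of 1, with 1 CPM added): 0 of 9 were past it in either direction, against 0.0443% of the 9024 detected genes higher and 0.0665% lower. Their log2 ratios ran from −0.21 for Catsper3 (−0.25 to −0.18) to 0.15 for Catsperg1 (0.11 to 0.20), and the 9 genes summed to 690 CPM in A10 and 721 CPM in A0. Within ST-like cells the ratios ran from −0.15 (Catsper3) to 0.15 (Catsperg1), with 0 of 9 past 2-fold, against 0.0486% of all genes higher and 0.0607% lower. Within SPC-like cells they ran from −0.09 to 0.09, with 0 of 9 past 2-fold, against 0.0443% higher and 0.0886% lower. With cells of at least 9013 UMIs it was again 0 of 9, against 0.0433% and 0.0757%. The median of all genes was −0.03 in the whole libraries.

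The comparison of B0 with A0 asks what busulfan alone left of this machinery. In the whole libraries 8 of 9 genes were lower by 2-fold or more, against 23.3% of all 11154 detected genes, and 0 of 9 were higher, against 39.2%. The lowest ratios were those of Catsper3 (log2 −2.66, −2.80 to −2.52), Catsper4 (−2.47) and Catsper1 (−2.42), each at 17.2% of control or less. Kcnu1 (−1.87), Slc9c1 (−1.74), Catsperd (−1.68), Catsperb (−1.29) and Catsper2 (−1.21) came next. Catsperg1 did not reach 2-fold (−0.87, −0.99 to −0.75). The median over the 9 was −1.74, while that of all detected genes was 0.32.

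Depth and cell make-up both moved with this result. When only cells with at least 9013 UMIs were kept in every library, 448 B0 cells remained. In them 2 of 9 genes were lower by 2-fold or more (Catsper3 and Catsper4), against 10.6% of all genes, 0 of 9 were higher, against 21.4%, the median over the 9 was −0.39, and Catsper2 and Catsperb were at 0.19 and 0.11, with Catsperg1 at 0.33. Of these cells, 65.6% came from clusters left unnamed, whereas such clusters made up 18.4% of all B0 cells. The limit kept only 24 of the 3489 somatic-like cells of B0, so that their share fell from 74.9% to 5.36%. The share of ST-like cells rose from 1.85% to 16.3%. Depth and make-up thus cannot be told apart here.

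The few ST-like cells that remained in B0, 85 of 86 of them in a single round spermatid-like cluster, held the later genes at levels close to those of A0. Catsper1 stood at 105 CPM against 82.2 in the ST-like cells of A0, Catsper3 at 175 against 161, Catsper4 at 146 against 141 and Kcnu1 at 51.7 against 46.6. The ratio of Catsper1 was 0.35 (0.08 to 0.62). For the other 3 the intervals of the ratio included 0, with log2 values of 0.12 (−0.09 to 0.33), 0.04 (−0.19 to 0.27) and 0.15 (−0.25 to 0.52). Catsperd was lower (39.7 against 73.2 CPM, log2 −0.87, −1.32 to −0.44), and so was Slc9c1 (11.1 against 22.3 CPM, −0.95, −1.80 to −0.19). Within ST-like cells 0 of 9 genes were 2-fold lower, against 9.65% of all genes, and 0 of 9 higher, against 25.7%. The A0 class also holds elongating spermatid-like clusters, in which B0 had 1 cell: the elongating markers summed to 77942 CPM in ST-like cells of A0 and 9414 CPM in those of B0. Set beside the A0 cluster most like it in its other genes, the B0 cluster had log2 ratios of −0.15 (−0.45 to 0.13) for Catsper1, −0.24 (−0.49 to 0.00) for Catsper4, −0.37 (−0.80 to 0.03) for Kcnu1 and −0.57 (−0.80 to −0.36) for Catsper3. The Spearman correlation over other genes was 0.936 for this A0 cluster and 0.929 for the next. All 9 ratios of this pair lay below 0, and Slc9c1 alone was past 2-fold (11.1 against 34.9 CPM, log2 −1.65, −2.62 to −0.82). The share of all genes below 0 in this pair was not counted, so the 9 of 9 is not read as particular to these genes. Catsperg1 was at −0.96 (−1.69 to −0.30) and Catsper2 at −0.53 (−0.75 to −0.32). Marker levels differed in this pair, with log2 ratios of 0.63 for Sycp3, a meiotic gene, −0.31 for Acrv1 and −2.50 for Prm1.

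In the main clustering the SPC-like cells of B0 were mostly early: 185 of 228 fell in an early spermatocyte-like cluster led by meiotic genes such as Meiob, Sycp1 and Hfm1. This depended on the clustering. At resolution 2 the class held 665 B0 cells, 184 of them in an early and 397 in a single late spermatocyte-like cluster. Against SPC-like cells of A0, 7 of 9 genes were lower by 2-fold or more in the 228 cells, against 22.2% of all genes. Catsperg1 stood at 122 CPM against 64.0 (log2 0.92, 0.73 to 1.10). Catsper1 and Kcnu1 had 1 UMI each in all 228 cells, and Catsper3 and Catsper4 had 4 each. In the early cluster alone, beside the early spermatocyte-like cluster of A0, Catsperg1 stood at 130 CPM in B0 and 135 CPM in A0 (log2 −0.05), whereas Catsper2 stood at 64.6 and 117 CPM (−0.86, −1.26 to −0.48). Wider gaps, among the genes with at least 5 UMIs in the B0 cluster, were those of Catsperb (−2.26, −3.92 to −0.97), Slc9c1 (−2.01, −3.50 to −0.83) and Catsperd (−1.31, −2.04 to −0.65). The pair was not alike in marker levels or depth (Spearman correlation 0.864 over other genes): Sycp3 stood at 2617 against 885 CPM, Prm1 at 7.83 against 1205 CPM, and the median cell held 4668 against 12007 UMIs. The part of these differences in the gaps was not tested. In B0 as a whole, much of the signal came from elsewhere: 78.4% of the Catsper2 UMIs, 76.2% of those of Slc9c1 and 47.3% of those of Catsper1 were in clusters left unnamed, which held 18.4% of the cells and 28.5% of all UMIs of B0. Most of these UMIs were in a cluster of 477 B0 cells with Catsper2 at 380 CPM and Sycp3 at 311 CPM, whose leading genes (Dcn, Gsn, Rarres2) are stromal. Its cells had a median of 9600 UMIs, and Insl3, a Leydig cell gene, stood at 168 CPM in it. Scrublet marked 0.0859% of B0 cells, so doublets were not found by it there, and the part of doublets or free RNA in this cluster was not tested.

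**Figure D3:**
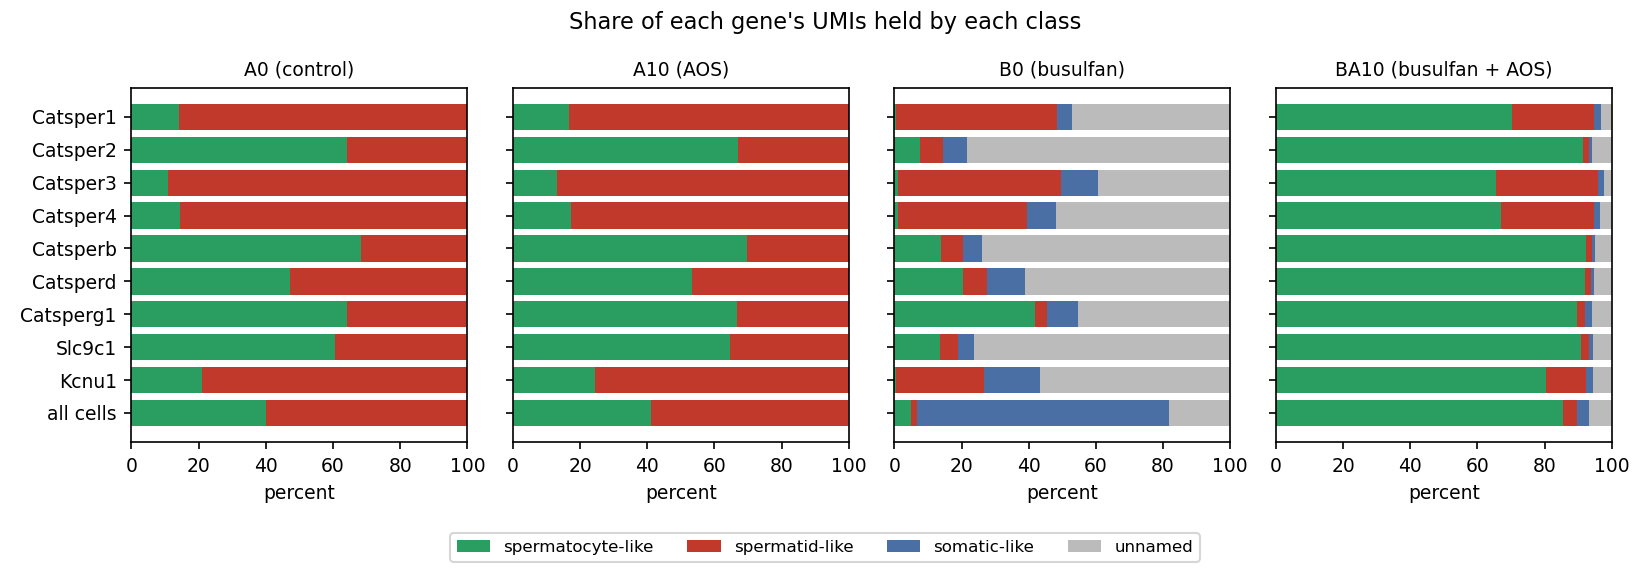
Share (percent) of the UMIs of each gene held by SPC-like, ST-like, somatic-like and unnamed cells in each library, with the share of all cells in the lowest bar. In B0 somatic-like cells were 74.9% of cells and held 59.4% of all UMIs but 4.22% of Catsper1 UMIs, and unnamed cells held 78.4% of Catsper2 UMIs.

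The comparison of BA10 with B0 asks what AOS did after busulfan. In the whole libraries 4 of 9 genes were higher by 2-fold or more, against 17.8% of all 11147 detected genes, and none was lower by as much, against 35.7%. The 4 were Catsperd (log2 1.88, 1.76 to 2.0), Slc9c1 (1.61), Catsper2 (1.41) and Catsperb (1.12), each of them higher in SPC-like cells of A0. Catsper1, Catsper3, Catsper4, Kcnu1 and Catsperg1 were higher by 0.62 to 0.79 log2 units. With cells of at least 9013 UMIs alone, 0 of 9 genes were 2-fold higher, against 0.995% of all genes, and 0 of 9 lower, against 16.5%. In those cells 6 of the 9 ratios lay between −0.82 (Catsper3) and −0.30 (Catsperb), Catsper2 was at −0.01, and Catsperd (0.44) and Slc9c1 (0.24) alone stayed above 0. The median of all genes there was −0.20, so the signs are not read as particular to these genes. This limit kept 24 of the 3489 somatic-like cells of B0, so it changed cell make-up along with depth. Other alternatives raised the count: all 9 genes were 2-fold higher as means over cells, and more than 4 when centred on the median of all genes.

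Within SPC-like cells, 5 of 9 genes were 2-fold higher in BA10 than in B0, against 18.4% of all genes, and Catsperg1 alone was lower (38.2 against 122 CPM, log2 −1.65), against 32.4%. Of the 5, Catsper1 and Kcnu1 rested on 1 UMI each in B0 (log2 3.24, 1.16 to 8.44, and 3.31, 1.22 to 8.52) and Catsper3 and Catsper4 on 4 each, so that Catsper2 (1.49, 1.30 to 1.69) was the only gene of these that rested on more (216 UMIs). Most cells of this class lay in different clusters in the 2 libraries, in the early cluster in B0 and in 3 late spermatocyte-like clusters in BA10 (1116, 1308 and 789 cells). The cluster of 1116 also held 42 B0 cells, and the early cluster held only 66 of the 216 Catsper2 UMIs, 21 of the 125 Catsperd UMIs and 5 of the 32 Catsperb UMIs of this class in B0. With the stromal-led cluster counted as SPC-like, the ratio of the summed level of the 9 genes was −0.03, in place of 0.76 (0.65 to 0.87), and with a finer clustering −0.05. Within ST-like cells 0 of 9 genes were past 2-fold, against 7.37% of all genes higher and 16.4% lower. Catsper4 stood at 230 CPM in BA10 and 146 in B0 (log2 0.65, 0.40 to 0.91), Catsper3 at 219 and 175 (0.32, 0.09 to 0.56) and Catsper1 at 121 and 105 (0.20, −0.10 to 0.51).

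The comparison of BA10 with A0 asks how far busulfan plus AOS was from control. In the whole libraries 4 of 9 genes were lower by 2-fold or more, against 18.2% of all 10534 detected genes, and 0 of 9 higher, against 16.7%. These were the 4 of the later pattern: Catsper3 (log2 −2.04, −2.11 to −1.98), Catsper4 (−1.72), Catsper1 (−1.66) and Kcnu1 (−1.08, −1.16 to −1.0). The 5 genes that were higher in SPC-like cells of A0 lay between −0.18 (Catsperb and Catsperg1) and 0.20 (Catsperd). The median of all detected genes was 0.38, above each of these 5. With cells of at least 9013 UMIs the same 4 were lower, against 18.4% of all genes. ST-like cells were 156 of 3778 in BA10 and 5344 of 8941 in A0, and these shares moved with the split.

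**Figure D4:**
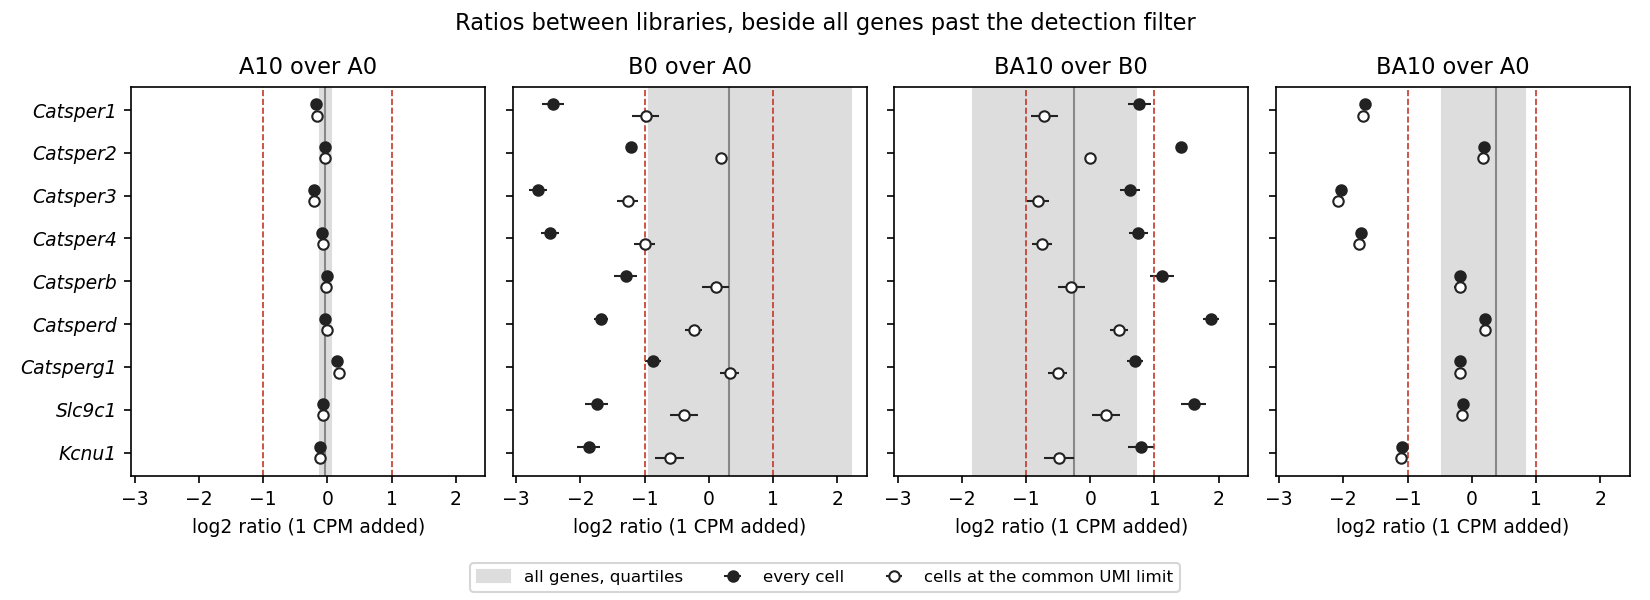
Log2 ratios (1 CPM added) of the 9 genes in the 4 comparisons of whole libraries (filled) and of cells with at least 9013 UMIs (open), with 95% counting intervals; the grey band spans the quartiles of all detected genes, the grey line their median and the dashed lines a 2-fold difference. In BA10 over A0, Catsper1, Catsper3, Catsper4 and Kcnu1 lay past 2-fold and the other 5 genes did not. In BA10 over B0, the filled points lay above 0 and 7 of the 9 open points below it, with the median of all genes at −0.20 for these cells.

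Over the ST-like class as a whole the later genes were not lower in BA10 than in A0. Catsper4 stood at 230 against 141 CPM (log2 0.69, 0.58 to 0.80), Catsper1 at 121 against 82.2 (0.55, 0.40 to 0.70), Catsper3 at 219 against 161 (0.44, 0.33 to 0.55) and Kcnu1 at 54.9 against 46.6 (0.23, 0.00 to 0.45). Catsperd was lower, at 50.6 against 73.2 CPM (−0.52, −0.76 to −0.30). None of the 9 genes was past 2-fold, against 11.2% of all genes higher and 6.02% lower, and the median of all genes was 0.21. Of the 156 cells, 135 lay in the round spermatid-like cluster, and the elongating markers summed to 34374 CPM in BA10 and 77942 CPM in A0. Set beside the most similar A0 cluster (Spearman correlation 0.955 over other genes, 0.95 for the next), the round spermatid-like cluster of BA10 had ratios from −0.30 (Catsperb) to 0.21 (Catsperd). They were 0.17 (−0.0 to 0.35) for Catsper1, −0.21 (−0.33 to −0.08) for Catsper3, 0.10 (−0.03 to 0.23) for Catsper4 and −0.09 (−0.35 to 0.16) for Kcnu1. Marker ratios were 0.92 for Sycp3, −0.44 for Acrv1 and −2.87 for Prm1. The B0 cells of this cluster were paired above with another A0 cluster, so these ratios and those of B0 do not share a baseline. Catsper4 stood at 235 CPM in the A0 cluster used here and at 173 CPM in the other.

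Within SPC-like cells of BA10 8 of the 9 genes were lower than in A0 by some amount. The share of all genes lower by any amount was not counted, so this is not read as particular to these genes. Past 2-fold, 0 of 9 were lower, against 8.05% of all genes, and 0 of 9 higher, against 3.71%. The gaps were widest for Catsperb (21.7 against 37.6 CPM, log2 −0.76, −0.85 to −0.68) and Catsperg1 (38.2 against 64.0 CPM, −0.73, −0.79 to −0.66). Slc9c1 (−0.58), Catsper4 (−0.58), Catsper3 (−0.54), Catsper1 (−0.44), Catsper2 (−0.34) and Kcnu1 (−0.22) followed, while Catsperd was at 0.12 (0.07 to 0.17). The median of all genes was 0.01. Cluster by cluster, beside the most similar A0 cluster and with no CPM added, Catsper3 had the lowest ratio of the 9: −1.25 (−1.69 to −0.79; 4.06 against 9.61 CPM) in the 1308-cell cluster, −1.18 (−1.84 to −0.47; 2.1 against 4.76 CPM) in the 1116-cell cluster and −1.05 (−1.16 to −0.94) in the 789-cell cluster. In the 1308-cell cluster its interval included the ratio of Catsperb, −1.12. Its levels in the first 2 clusters were low, so that adding 1 CPM moves these ratios and their ranking. In the 1308-cell cluster Catsperb had a log2 ratio of −1.12 (54.4 CPM in A0), Slc9c1 stood at 36.5 against 62.5 and Catsperg1 at 33.1 against 56.6, and in the 1116-cell cluster the log2 ratios of these 3 genes were −0.80, −0.87 and −0.68. Catsperd was at 0.02 and 0.09 in these clusters, and Kcnu1 was higher in the first (12.3 CPM, log2 0.70, 0.29 to 1.14). The cluster of 789 cells, named late spermatocyte-like, was most similar to a round spermatid-like cluster of A0, and in it Catsper3 stood at 83.6 against 173 CPM and Catsper4 at 93.6 against 136 CPM. The next A0 cluster was nearly as similar (Spearman correlation 0.929 and 0.927), and marker levels moved with these gaps: Sycp3 stood at 156 against 82.2 CPM, Acrv1 at 128 against 237 CPM and Prm1 at 45.8 against 2054 CPM. In the 1308-cell and 1116-cell clusters Acrv1 was at −0.72 and −1.47 and Prm1 at −5.38 and −5.04, with Sycp3 at −0.04 and −0.07. Prm1 is not read as a marker of stage alone, since it stood at 1529 CPM in bin 1 of the order in A0. The 12 elongating spermatid markers summed to 14822 CPM in SPC-like cells of A0 and to 2087 CPM in those of BA10. The part of stage or of free RNA in the gaps was not tested. The 789-cell cluster held 872 of the 1063 Catsper1 UMIs of the SPC-like cells of BA10.

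**Figure D5:**
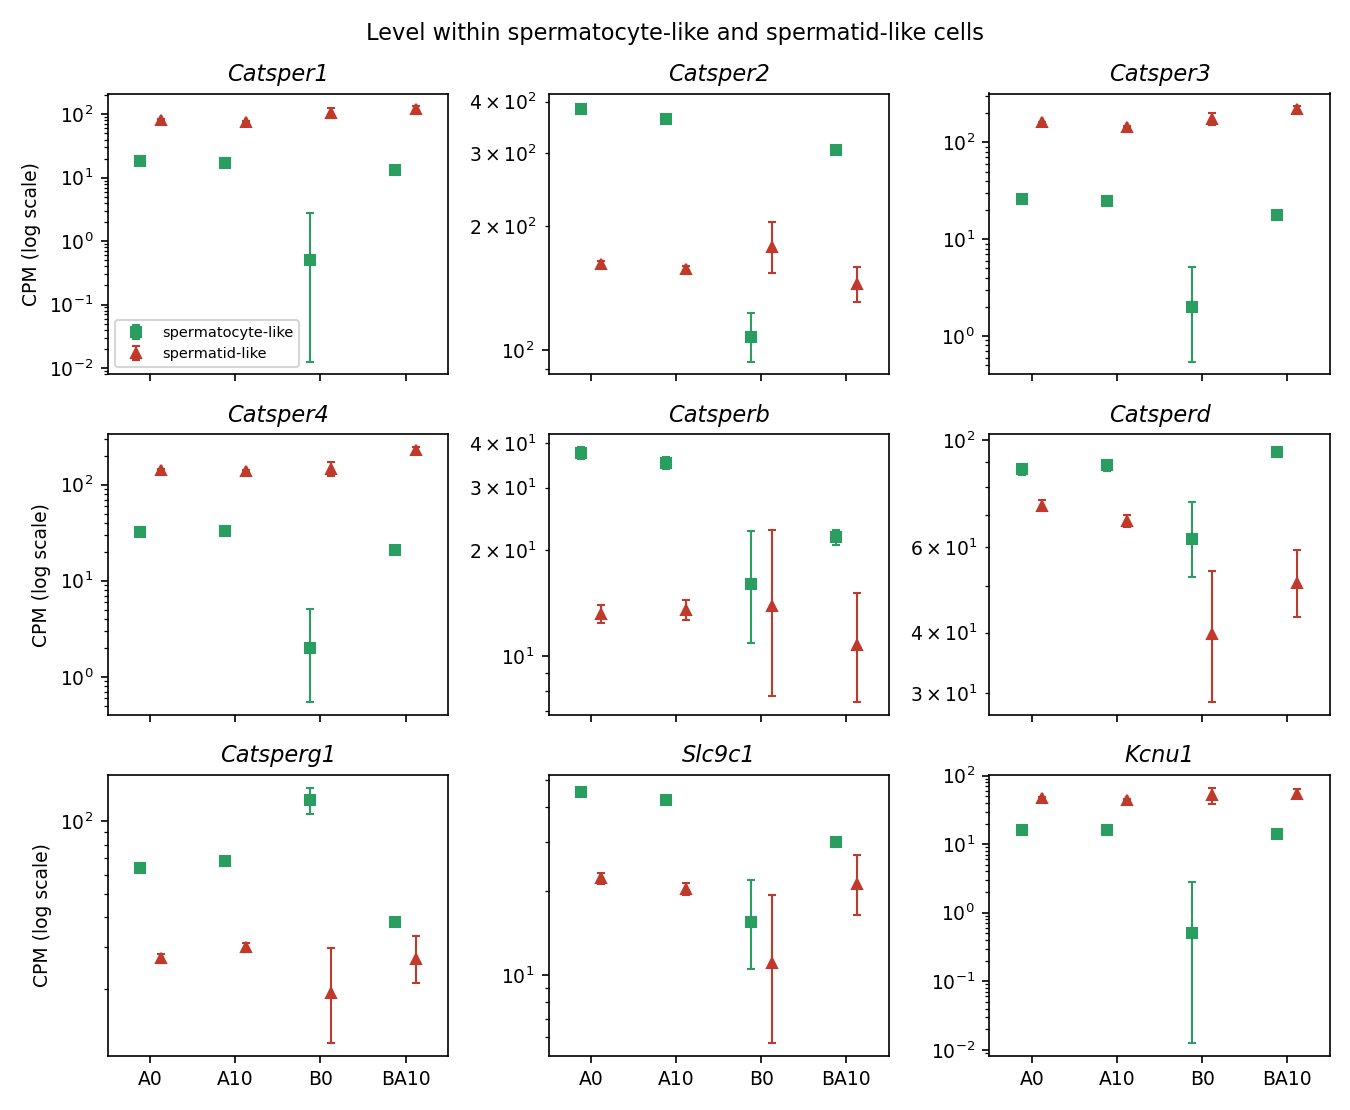
Level of each gene (CPM, log axis) within SPC-like (green squares) and ST-like (red triangles) cells of each library, with 95% counting intervals. In A0, A10 and BA10 the triangles lay above the squares for Catsper1, Catsper3, Catsper4 and Kcnu1 and below them for the other 5 genes (Catsperd turned when centred on the median of all genes in A0 and A10), and B0 rested on 228 and 86 cells.

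The partners of these genes were read from a list of 24 channel partners, flagellar transporters and kinase anchors, of which 17 were in the table and 15 were detected in at least 5% of cells in the comparisons of whole libraries. Catspere1, Catspere2, Catsperz, C2cd6, Tmem249, Tmem262 and Slc26a3 were not analysed here. In A0, 9 of the 17 were higher in ST-like than in SPC-like cells, among them Hvcn1 and Slc9b2, which stood under 0.1 CPM in both classes. In A10 it was 8, with Hvcn1 turned (0.0787 CPM in ST-like and 0.223 CPM in SPC-like cells). The share of all genes was not counted. Partners of the pore and of the potassium channel were among those higher in ST-like cells of A0. Efcab9, whose product is the calcium sensor of CatSper, stood at 511 CPM in ST-like and 106 in SPC-like cells. Lrrc52, whose product is the auxiliary subunit of SLO3, stood at 73.0 and 9.37 CPM. Atp1a4 (the sperm sodium pump), Abhd2 (the progesterone-responsive lipase that relieves CatSper) and the fibrous sheath genes Akap3 and Akap4 were likewise higher in ST-like cells, at 266, 84.1, 608 and 1076 CPM. By contrast Slco6c1 (230 against 121 CPM) and Trim69 (248 against 148 CPM), both linked to the CatSper complex, Slc9b1 (503 against 228 CPM), another sperm exchanger, Slc26a8 (62.5 against 22.4 CPM), an anion transporter, and Catsperg2 (31.4 against 12.4 CPM) were higher in SPC-like cells.

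In BA10 against A0, 6 of the 15 detected partners were lower by 2-fold or more, against 18.2% of all genes: Atp1a4 (log2 −3.67), Akap4 (−3.59), Akap3 (−2.72), Abhd2 (−2.59), Lrrc52 (−2.39) and Efcab9 (−1.80). Slc26a8 (0.85), Catsperg2 (0.55), Trim69 (0.37), Slc9b1 (0.15) and Slco6c1 (−0.08) were not. Adcy10 was not among the 6 either, although it was higher in ST-like than in SPC-like cells of A0 (35.0 against 16.3 CPM). The count was again 6 of 15 with cells of at least 9013 UMIs, against 18.4%. In B0 against A0, 12 of the 15 were lower, against 23.3% of all genes, and Atp2b4, a plasma membrane calcium pump gene, was higher (1.07), against 39.2%. At the limit of 9013 UMIs, 5 of the 15 were lower (Akap4, Atp1a4, Abhd2, Akap3 and Lrrc52), against 10.6% of all genes, and 0 were higher, against 21.4%, with Atp2b4 at 0.90. In BA10 against B0, 5 were higher, against 17.8% of all genes, namely Slc26a8 (1.98), Trim69 (1.94), Catsperg2 (1.66), Slc9b1 (1.56) and Slco6c1 (1.31), all of them higher in SPC-like than in ST-like cells of A0. At this limit none of the 15 was 2-fold higher, against 0.995% of all genes, the 5 lay between −0.19 (Slco6c1) and 0.52 (Slc26a8), and Atp1a4 was lower (−1.16), against 16.5%. Among relatives that serve other tissues, Cacna1h, a T-type calcium channel gene, reached 9.48 CPM in A0, while Kcnma1, the large-conductance potassium channel of muscle and nerve, stood at 1.01 CPM in A0 and 6.79 CPM in B0.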

How the data were processed

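Testis cells of 4 groups were profiled with the 10x Genomics 3′ kit, 1 library a group. Per the submitters' processing notes, reads were processed with Cell Ranger 2.2.0 against mm10. The values deposited by the authors are natural logs, ln(1 + 10000 × the share of a cell's UMIs), of 27060 cells and 18419 genes, after genes seen in fewer than 3 cells were removed. The exponentials gave back whole UMIs for 100% of values above 0, within 0.001, and these were summed into UMIs per 1000000 (CPM). No mitochondrial gene is in the table. The table holds no comparison by the authors.

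Cells were clustered in scanpy 1.11.5 (2000 variable genes without the 9 genes, their partners and relatives, 30 components, 15 neighbours, Leiden resolution 1), with libraries merged without alignment. Clusters were named from marker lists, and stayed unnamed where another class or stromal genes (a list added after seeing the data) led them. Scrublet marked as doublets 8.06% (A0), 8.66% (A10), 0.0859% (B0) and 1.27% (BA10) of cells. The B0 share is too low for the caller to have worked there, and doublets were kept. The order of cells is a diffusion order without those cells.

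With 1 library a group there is no test. Ratios between libraries are on the log2 scale with 1 CPM added. They are read against genes with a UMI in 5% or more of the cells of the first or the second library. A difference of 1 or more is called. The ratios printed for ST-like over SPC-like cells and for paired clusters are log2 ratios with no CPM added. Intervals are exact 95% intervals (Poisson for CPM, Clopper-Pearson for shares, conditional binomial for ratios), checked on simulated data. Named genes were the 9 genes, their partner list and, for each gene, the 3 most alike profiles. Genes and lists were chosen with earlier results of these data known. Alternatives were another pseudocount (10 CPM), cells of at least 9013 UMIs, means over cells, centring on the median of all genes, other clusterings and no Scrublet cells. Coordinates are from GENCODE M21 and promoter sequences from RefSeq (GRCm38.p6). Scripts used Python 3.11.15, numpy 2.4.6, scipy 1.17.1 and pandas 2.3.3. The level of 1 related gene is not reported here.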

Additional observations from a re-analysis of the deposited data

Results flagged for a closer look

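For 6 of the 9 genes BA10 was above B0 while A10 was below A0, each with a counting interval that excluded 0. The share of all genes that meet this rule was not counted. The median ratio of A10 to A0 over all genes was −0.03, which is also the ratio of Catsper2, 1 of the 6. Catsperd and Catsperb were also above B0 in BA10, but their ratios of A10 to A0, −0.03 (−0.07 to 0.01) and −0.00 (−0.07 to 0.06), had intervals that included 0. The difference between the log2 ratios of the 6 was 0.94 for Catsper1, 1.44 for Catsper2, 0.83 for Catsper3, 0.83 for Catsper4, 1.68 for Slc9c1 and 0.91 for Kcnu1. It was not tested, since each group was 1 library. With cells of at least 9013 UMIs alone it was −0.56, 0.03, −0.61, −0.68, 0.31 and −0.38 for the same genes.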

How the results depend on the processing

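The direction of the spermatid-like to spermatocyte-like ratio held in 160 of 162 combinations of gene, library and alternative, the exceptions being Catsperd in A0 and A10 when centred on the median of all genes. Single-gene ratios, those 162 included, kept their sign in 323 of 342. Their size was less stable: 179 of the 342 left the counting interval of the main value, and 4 that had been past 2-fold reversed. With cells of at least 9013 UMIs, B0 over A0 had 2 genes lower in place of 8 and a summed log2 ratio of −0.26 in place of −1.67, and BA10 over B0 had 0 genes higher in place of 4 and −0.13 in place of 1.31. This limit removed most somatic-like cells of B0, so it changed cell make-up along with depth. Single genes that turned there were Catsper2 (0.19), Catsperb (0.11) and Catsperg1 (0.33) in B0 over A0, and in BA10 over B0 Catsper1 (−0.72), Catsper2 (−0.01), Catsper3 (−0.82), Catsper4 (−0.75), Catsperb (−0.30), Catsperg1 (−0.51) and Kcnu1 (−0.49), 7 of 9. The median of all genes at this limit was 0.34 for B0 over A0 and −0.20 for BA10 over B0. As means over cells, the summed ratios were −0.08 (A10 over A0), −2.62 (B0 over A0), 2.31 (BA10 over B0, with 9 genes higher) and −0.30 (BA10 over A0). Centred on the median of all genes they were −0.04, −1.99, 1.57 (7 genes higher) and −0.75. With 10 CPM added, B0 over A0 was −1.63 and BA10 over B0 1.27, and without Scrublet cells A10 over A0 was −0.08.

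Within spermatid-like cells the summed A10 over A0 ratio, −0.08, was −0.05 at 9013 UMIs, −0.10 as a mean over cells, −0.02 when centred and −0.06 at resolution 0.5 and with 1000 variable genes. BA10 over A0, 0.27, was 0.33 as a mean over cells, 0.05 when centred and 0.15 at resolution 2. Within spermatocyte-like cells BA10 over A0, −0.36, was −0.40 at resolution 0.5 and with 1000 variable genes and −0.42 at resolution 2. BA10 over B0, 0.76, was 0.47 at 9013 UMIs, 1.24 as a mean over cells, 1.07 when centred, −0.05 at resolution 2 and −0.03 with the stromal-led cluster included, an alternative chosen after seeing the data. The median share of cells with a UMI was 21.7, 19.5, 7.65 and 13.8% in A0, A10, B0 and BA10 after thinning, 47.2, 47.0 and 31.2% in the first 3 at 9013 UMIs, and 42.7% in A0 and 39.2% in A10 without Scrublet cells. The causes were not tested.

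No paired analysis was possible because each group was 1 library with no replicate number in the labels. The germ cell values of B0 rested on 228 spermatocyte-like and 86 spermatid-like cells.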
